A study of Mus musculus with 8 samples.

Results

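Solute carrier genes encode membrane transporters that do not hydrolyse ATP, and 34 of them were listed in the authors' deposited table of genes that differed between liver macrophages of mice on a western diet (WD, 4 libraries) and on a normal diet (ND, 4 libraries). A gene was taken as a member if its symbol began with Slc and a digit, or with Slco, and members were grouped by the family number in the symbol. The table held 2386 genes in all, so 34 of 2386 are described here. All animals were C57BL/6, a common inbred mouse strain, and the series gives 4 mice per diet. The sources used here do not give mouse age, diet composition, feeding time or how the macrophages were isolated. The table writes its groups as WDV and NDV, with the V unexplained, and they were taken to be WD and ND.

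Solute carriers move amino acids, sugars, ions, metals, nucleosides, organic anions and vitamins across the plasma membrane and the membranes of organelles, by facilitated diffusion, by exchange, or by coupling to an ion gradient. Family numbers follow sequence relatedness and, in most families, a shared class of substrate. In liver, hepatocytes take up bile acids and drugs through carriers of the Slc10, Slc22 and Slco families. Macrophages use carriers for iron, heme and amino acids, and sinusoidal endothelium carries transporters for nucleosides and prostaglandins.

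The authors' deposited table gives 1 fold change for the whole comparison and no value for any single library, so the value of each mouse, the overlap of the groups and the depth of each library cannot be shown. A log2 fold change is WD over ND throughout, so a negative value means lower in WD, and each error is the authors' standard error (SE) on that scale. The 95% intervals were computed from that SE on the log2 scale. Level is the authors' mean normalized count, in which the averaged libraries are not stated. The table had been restricted to genes with a p-value below 0.05 and a change of more than 2-fold. In the GENCODE M21 annotation, 394 genes have a symbol of this kind, so 8.63% of them were listed. Every gene shown had therefore been selected on its difference, and the remaining annotated genes, whose differences may have missed either limit or which may not have been measured, are not analysed here. A listed gene is called here at an adjusted p below 0.05. The adjustment was made by the authors, who left it blank for some genes with a p-value, Slc7a9 among them.

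The 250 bases before the RefSeq transcription start are shown for 5 genes, the 3 largest called falls and the 2 largest called rises of coding genes for which RefSeq gave a window free of annotated exons, with the falls taken from genes at or above the median level of the table. Each is printed 5′ to 3′ on the gene's strand, from the RefSeq build GRCm38.p6 (mm10), and capitals mark matches to any of 5 motifs named below. Slc18b1 lies at chr10:23796736-23796985 (plus strand), Slc39a8 at chr3:135825029-135825278 (plus), Slc10a6 at chr5:103629404-103629653 (minus), Slc1a3 at chr15:8710808-8711057 (minus) and Slco1b2 at chr6:141629268-141629517 (plus).
Slc18b1: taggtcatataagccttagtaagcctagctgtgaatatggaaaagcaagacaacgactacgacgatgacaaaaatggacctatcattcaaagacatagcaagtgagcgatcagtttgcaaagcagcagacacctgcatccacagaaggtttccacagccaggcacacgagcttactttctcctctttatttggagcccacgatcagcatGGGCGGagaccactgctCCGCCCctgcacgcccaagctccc
Slc39a8: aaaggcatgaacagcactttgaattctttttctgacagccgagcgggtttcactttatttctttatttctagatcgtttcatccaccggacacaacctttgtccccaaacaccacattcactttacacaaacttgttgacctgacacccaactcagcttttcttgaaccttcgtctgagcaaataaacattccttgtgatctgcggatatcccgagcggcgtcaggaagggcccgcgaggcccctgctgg
Slc10a6: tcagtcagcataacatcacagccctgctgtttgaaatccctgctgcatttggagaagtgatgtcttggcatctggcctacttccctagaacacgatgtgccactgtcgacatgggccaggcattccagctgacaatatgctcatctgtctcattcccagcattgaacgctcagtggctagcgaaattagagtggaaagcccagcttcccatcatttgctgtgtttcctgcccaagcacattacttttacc
Slc1a3: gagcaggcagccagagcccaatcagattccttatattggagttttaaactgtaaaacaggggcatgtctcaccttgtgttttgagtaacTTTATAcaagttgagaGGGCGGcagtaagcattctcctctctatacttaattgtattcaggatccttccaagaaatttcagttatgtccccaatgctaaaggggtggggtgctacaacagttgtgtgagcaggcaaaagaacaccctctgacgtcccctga
Slco1b2: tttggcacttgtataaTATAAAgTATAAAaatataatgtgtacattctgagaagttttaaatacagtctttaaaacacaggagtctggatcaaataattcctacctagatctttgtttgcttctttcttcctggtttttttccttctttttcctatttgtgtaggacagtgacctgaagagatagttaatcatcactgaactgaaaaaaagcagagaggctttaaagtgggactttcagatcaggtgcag

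The motifs were searched on both strands, and no match overlapped another in the printed windows. They were the GC box (GGGCGG), an ETS core (CCGGAA), the E-box (CACGTG), the TATA box (TATAAA) and the core of the amino acid response element (TGATGNAA). Slc18b1, which fell, held 2 GC boxes whose first bases lay 41 and 24 bases before the start. The windows of Slc39a8 and Slc10a6, which also fell, held none of the 5. Slc1a3, which rose, held a TATA box at 161 bases and a GC box at 145 bases before the RefSeq start; the bases just after that start were found in no GENCODE transcript of the gene. Slco1b2, which rose, held 2 TATA boxes, at 234 and 227 bases. Over the 25 listed members with a RefSeq window, the GC box was found in 10 (40%), against 32.7% of 32817 windows of the same length. The TATA box was in 6 of 25 (24%), against 12.4% of all windows, the amino acid response core in 2 (8%), against 3.45%, the E-box in 1 (4%), against 6.02%, and the ETS core in 0 of 25, against 3944 of the 32817. For 20 of the 25, the bases just after the RefSeq start lie within a GENCODE transcript of the gene. The median GC content was 52.8% in the members' windows and 52.4% in all windows. A match describes letters only, and an absent match says no more than that these letters are not in this window.

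Most listed solute carriers were lower in WD. Of the 34, 25 (73.5%) were called lower and 4 (11.8%) higher in the authors' deposited table, and 5 did not pass; over all 2386 listed genes, 61.4% were called lower and 22.0% higher. Set against annotation instead, 6.35% of the 394 annotated solute carriers were called lower and 1.02% higher. The ranks of the adjusted p-values pointed to 17531 tested genes, of which 1464 (8.35%) were listed and called lower and 526 were listed and called higher. How many solute carriers the authors tested is not known, and no test of the group was made. The 25 falls had a median log2 fold change of -2.15, close to the median of -2.10 over all called falls in the authors' deposited table. A fall of more than 4-fold was found in 13 of the 25 (52%), against 54.2% of all called falls in that table. The 4 rises had a median of 1.27, against 1.34 over all called rises, and none exceeded 4-fold in the authors' deposited table. All 10 sinusoidal endothelial marker genes examined (for example Cldn5 and Kdr) were lower in the same comparison, and their part in these falls was not tested. In a bulk preparation, fewer cells of a type and less RNA per cell cannot be told apart.

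**Figure D1:**
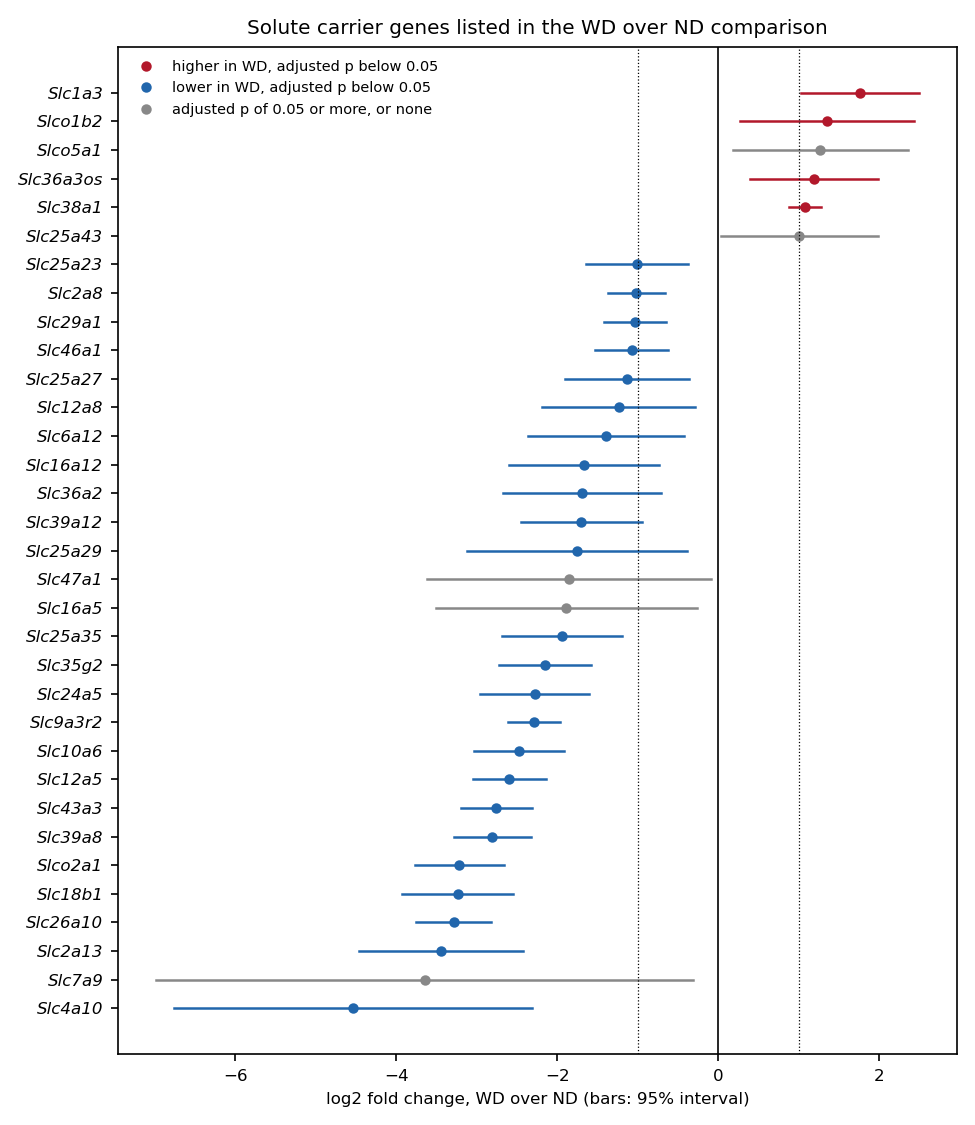
Log2 fold change, WD over ND (horizontal axis), of 33 of the 34 listed solute carrier genes, ordered from highest to lowest; points are the authors' values, bars are 95% intervals and dotted lines mark the 2-fold limit of the table. Positive values were found for 6 of the genes drawn and negative values for 27, and the bars of Slc4a10 and Slc7a9, at mean counts of 5.58 and 1.21, are the widest.

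Carriers of inorganic ions and their associated scaffold were lower without exception among those listed. All 6 listed genes, of 68 annotated in this class, were called lower. For comparison, 61.4% of all listed genes were called lower. Of all tested genes, 8.35% were listed and called lower, which is near the share of 6 in 68. The count therefore does not set this class apart. The log2 fold changes of the 6 in the authors' deposited table spanned -4.53 to -1.24. Slc26a10, a member of the anion exchanger family whose own function is not established, had a mean count of 403 and fell 9.75-fold (95% interval 7.07 to 13.4, log2 -3.28 ± 0.24, adjusted p 2.20e-41) in the authors' deposited table. It lies on chromosome 10 (127171393 to 127180645, minus strand, mm10), and 17.8% of its exon bases are shared with exons of B4galnt1 on the other strand. Slc9a3r2 is a PDZ scaffold (NHERF2) that binds a sodium-proton exchanger and is itself no transporter, though its symbol falls under the rule. It had a mean count of 631 and fell 4.88-fold (log2 -2.29 ± 0.16, adjusted p 2.14e-41) in the authors' deposited table, on chromosome 17 (24639286 to 24650327). These were the only 2 members among the 100 listed genes with the smallest p-values.

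The other ion carriers were measured at lower levels. Slc12a5, the potassium-chloride cotransporter KCC2 known from neurons (chromosome 2, 164960802 to 164999731), had a mean count of 102 and fell 6.03-fold (log2 -2.59 ± 0.23, adjusted p 1.40e-27) in the authors' deposited table. Its family member Slc12a8 was lower by less, at -1.24 ± 0.49 and a mean count of 9.52 in the authors' deposited table. Slc24a5, the potassium-dependent sodium-calcium exchanger of pigment organelles, stood at -2.28 ± 0.35 in the authors' deposited table, and 39.5% of its exon bases are shared with Myef2 on the opposite strand. Slc4a10, a sodium-coupled bicarbonate transporter, had the lowest log2 fold change of any member, -4.53 ± 1.14, at a mean count of only 5.58 in the authors' deposited table. Its fold interval, from 4.96 to 108, is too wide to rank it against the other falls.

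Both listed zinc carriers of family 39 fell. Slc39a8 (ZIP8), which imports zinc and manganese (chromosome 3, 135825279 to 135888572), had a mean count of 501 and fell 6.99-fold (95% interval 5.02 to 9.73, log2 -2.81 ± 0.24, adjusted p 1.01e-28) in the authors' deposited table. Slc39a12 (ZIP12), another zinc importer, stood at -1.70 ± 0.38 at a mean count of 19.6 in the authors' deposited table. They were 2 of 15 annotated genes of this family. Over all listed genes 61.4% were called lower, and 8.35% of all tested genes were listed and called lower. No zinc exporter (Slc30), divalent metal carrier (Slc11) or iron exporter (Slc40) was in the table.

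Organic anion carriers moved in both directions. Slco2a1, the prostaglandin transporter (chromosome 9, 102988712 to 103096002), had a mean count of 812 and fell 9.28-fold (95% interval 6.34 to 13.6, log2 -3.21 ± 0.28, adjusted p 1.65e-28) in the authors' deposited table. Slco1b2, a hepatocyte uptake carrier for bile acids and drugs (chromosome 6, 141629518 to 141686646), rose 2.55-fold at a mean count of 19.3, with a wide interval of 1.21 to 5.38 (log2 1.35 ± 0.55, adjusted p 0.0479) in the authors' deposited table. Slco5a1, a member of the same family with no settled substrate (chromosome 1, 12866549 to 12992650), was listed at 1.27 ± 0.55 and a mean count of 9.49 without passing (adjusted p 0.0699) in the authors' deposited table. So of 3 listed among 15 annotated Slco genes, 1 fell and 1 rose. Other families were placed beside Slco by substrate class only, that of bile acids and organic ions. Among them, Slc10a6, a carrier of sulfated steroids (chromosome 5, 103605711 to 103629403), had a mean count of 139 and fell 5.55-fold (log2 -2.47 ± 0.28, adjusted p 9.26e-17) in the authors' deposited table. Slc47a1 (MATE1), which exports organic cations, was at -1.85 ± 0.90 without passing (adjusted p 0.112) in the authors' deposited table.

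Family 16, named for monocarboxylate transport, had 3 of 14 annotated genes in the table, of which 2 are described here. Slc16a12, a creatine transporter (chromosome 19, 34668403 to 34747289), fell 3.17-fold at a mean count of 13.7 (log2 -1.67 ± 0.47, adjusted p 0.00261) in the authors' deposited table. Slc16a5 (MCT6; chromosome 11, 115462474 to 115474398) was at -1.88 ± 0.83 and a mean count of 4.57 without passing (adjusted p 0.0710) in the authors' deposited table.

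Carriers of nucleosides, nucleobases and amino acids included the members with the highest levels. Slc29a1 (ENT1), the equilibrative nucleoside transporter (chromosome 17, 45585200 to 45599606), had the highest mean count of the 34, 2157, and fell 2.05-fold (95% interval 1.57 to 2.68, log2 -1.04 ± 0.20, adjusted p 1.80e-06) in the authors' deposited table. Slc43a3, whose family carries large neutral amino acids but which itself transports purine nucleobases (chromosome 2, 84936579 to 84958509), followed at 1835 and fell 6.75-fold (95% interval 4.97 to 9.18, log2 -2.76 ± 0.23, adjusted p 4.64e-32) in the authors' deposited table. Intervals of these 2 falls do not overlap, though the difference between them was not tested.

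Amino acid carriers held 2 of the 4 rises, Slc38a1 and Slc1a3. By family number, 7 of 72 annotated genes of the amino acid and peptide class were listed. Of these, 3 were called higher, counting Slc36a3os, and 3 lower, counting Slc43a3. For comparison, 526 of the 17531 tested genes were listed and called higher, and 8.35% were listed and called lower. Over all listed genes, 22.0% were called higher and 61.4% lower. No test of the class was made, and counts of 3 in either direction are too small to set it apart. Slc38a1 (SNAT1), a sodium-coupled importer of glutamine and other neutral amino acids (chromosome 15, 96571418 to 96642913), had a mean count of 1339 and rose 2.11-fold (95% interval 1.83 to 2.44, log2 1.08 ± 0.10, adjusted p 3.13e-23) in the authors' deposited table. Its SE was the smallest of any member, and it was the only rise with a mean count over 100. Slc1a3 (GLAST), a glutamate and aspartate importer (chromosome 15, 8634124 to 8710764), had a mean count of 27.05 and the highest log2 fold change of the 34, 1.76 ± 0.37 (3.39-fold, adjusted p 2.58e-05), in the authors' deposited table. Slc1a3 was the only rise whose 95% interval lay wholly beyond 2-fold. Against these, Slc36a2 (PAT2), a proton-coupled carrier of glycine and proline, fell (-1.70 ± 0.50), as did Slc6a12 (BGT1), the betaine and GABA transporter (-1.39 ± 0.49), in the authors' deposited table. Slc36a3os, named as an opposite-strand transcript of Slc36a3 and no transporter (chromosome 11, 55137044 to 55140193), rose (1.19 ± 0.40) in the authors' deposited table. Its exons overlap no exon of another annotated gene. Slc7a9, a cystine transporter subunit, was listed at -3.64 ± 1.70 with no adjusted p and a mean count of 1.21 in the authors' deposited table. Monocyte markers (4 of 4 examined) and T and NK cell markers (5 of 7) were higher in the same comparison. Also higher were dendritic cell markers (4 of 5, with Zbtb46 lower) and mast cell markers (3 of 4, with Kit lower). Hepatocyte markers (3 of 8) and B cell markers (2 of 4) were higher too. The part of these cells in the rises was not tested.

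Among sugar carriers, 2 of 13 annotated family 2 genes were listed and both fell. Over all listed genes 61.4% were called lower, and 8.35% of all tested genes were listed and called lower. Slc2a13 (HMIT), a proton-coupled myo-inositol transporter, stood at -3.44 ± 0.52 at a mean count of 16.5 in the authors' deposited table. Slc2a8 (GLUT8), an intracellular hexose transporter (chromosome 2, 32972990 to 32982083), had a mean count of 135 and fell 2.02-fold (log2 -1.02 ± 0.18, adjusted p 3.18e-07) in the authors' deposited table. Intervals (95%) of the pair do not overlap, and their difference was not tested. The plasma membrane glucose transporter genes Slc2a1 and Slc2a2 were not in the table.

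Mitochondrial carriers were the most numerous family, with 5 listed of 48 annotated, of which 4 fell. The family also had the most annotated genes of the families with a listed gene. Of all tested genes, 8.35% were listed and called lower, which is near the share of 4 in 48. They had mean counts from 6.19 to 44.5 in the authors' deposited table, so none reached 100. Slc25a35 (chromosome 11, 68968131 to 68974365), a carrier of unsettled substrate, fell 3.84-fold (log2 -1.94 ± 0.38, adjusted p 4.14e-06) in the authors' deposited table, and 31.3% of its exon bases are shared with Rangrf on the opposite strand. Slc25a29, which carries basic amino acids (chromosome 12, 108825873 to 108835883), was at -1.75 ± 0.70 (adjusted p 0.0424) in the authors' deposited table. Slc25a27 (UCP4; chromosome 17, 43641891 to 43667214) stood at -1.13 ± 0.39 (adjusted p 0.0169), and the ATP-magnesium/phosphate carrier Slc25a23 (chromosome 17, 57043711 to 57059863) at -1.01 ± 0.32 (adjusted p 0.00847), in the authors' deposited table. All 4 falls have 95% intervals that overlap one another. Slc25a43 (chromosome X, 36743659 to 36777202) was listed at 1.01 ± 0.50 without passing (adjusted p 0.117) in the authors' deposited table.

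Vesicular, nucleotide-sugar and vitamin carriers had 1 listed gene each, of 15, 27 and 13 annotated, and each of these fell. As 61.4% of all listed genes were called lower, 1 gene says little about its class. Slc18b1, a vesicular polyamine transporter (chromosome 10, 23796986 to 23827968), had a mean count of 47.5 and fell 9.41-fold (95% interval 5.84 to 15.2, log2 -3.23 ± 0.35, adjusted p 1.30e-18) in the authors' deposited table. Slc35g2, assigned by family to nucleotide-sugar transport, was at -2.15 ± 0.29 in the authors' deposited table. Slc46a1 (PCFT), the proton-coupled folate transporter (chromosome 11, 78465697 to 78472059), had a mean count of 61.9 and fell 2.10-fold (log2 -1.07 ± 0.23, adjusted p 3.96e-05) in the authors' deposited table.

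**Figure D2:**
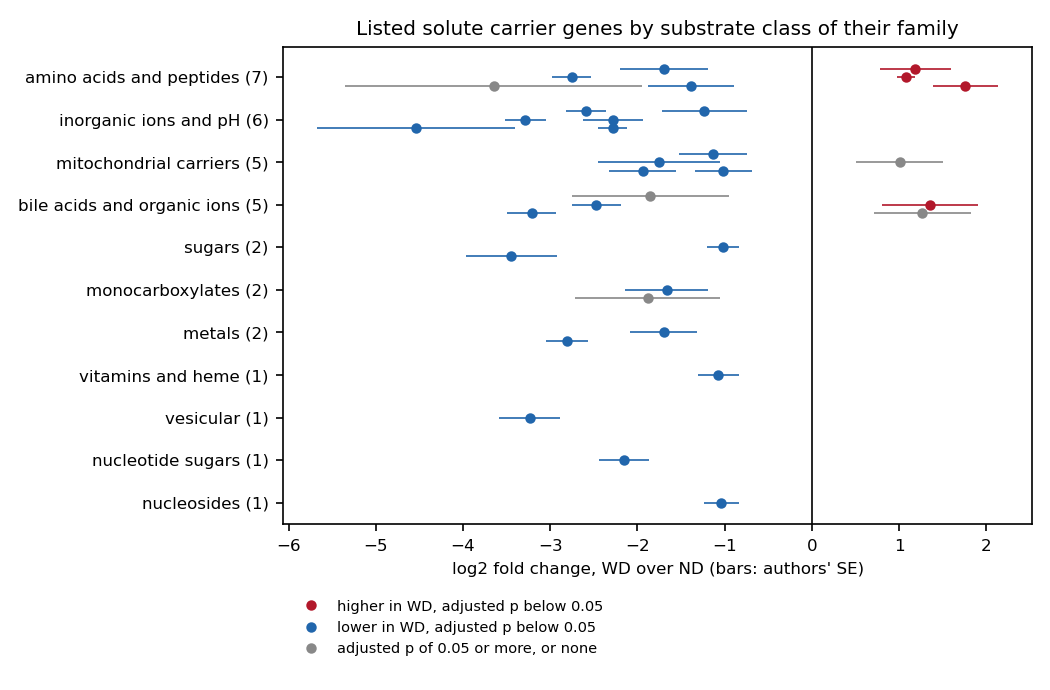
Log2 fold change, WD over ND (horizontal axis, bars are the authors' SE), of the listed solute carrier genes by the substrate class of their family, with the number drawn in brackets (33 in all). All points of the ion, metal, sugar and monocarboxylate classes lie below 0, while the classes of amino acids, of bile acids and organic ions, and of mitochondrial carriers hold points on both sides.

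Levels varied widely among the 34. Mean counts ran from 1.21 (Slc7a9) to 2157 (Slc29a1), with a median of 28.3, against 37.5 over all listed genes, in the authors' deposited table. Precision followed level: the median SE was 0.23 in the 11 members with a mean count over 100, 0.39 in the 16 between 10 and 100 and 0.83 in the 7 under 10. Of these, 11, 15 and 3 passed. Of the 11 most abundant, 10 fell and Slc38a1 rose. With the mean count divided by the kilobases of merged exon in the annotation, the order was Slc29a1 at 538, Slc43a3 at 411, Slc9a3r2 at 238, Slc26a10 at 100 and Slc38a1 at 77.7 per kb. Next in that measure came Slc39a8 at 65.3, Slc10a6 at 65.2 and Slco2a1 at 60.0 per kb. These levels have no error in the table, so neighbours in the order cannot be separated.

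**Figure D3:**
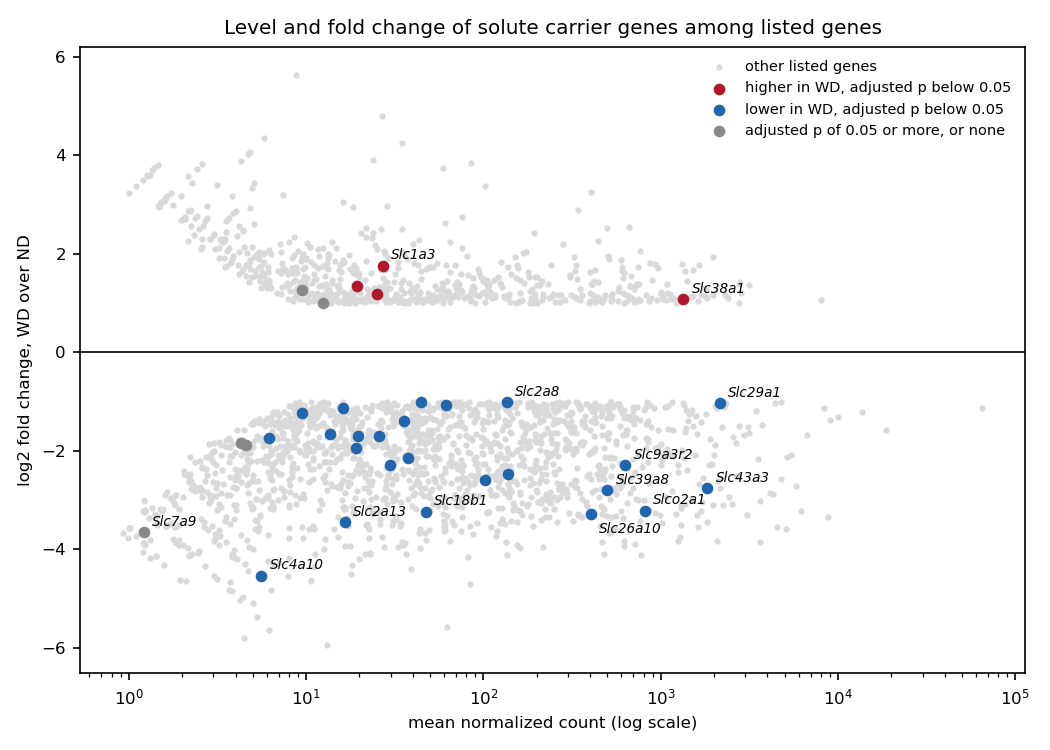
Log2 fold change, WD over ND (vertical axis), against mean normalized count (horizontal, log scale) for the listed genes in grey and 33 of the solute carrier genes in colour. Among the 7 most abundant solute carriers, Slc38a1 is the only one above 0, and Slc43a3, Slco2a1, Slc9a3r2, Slc39a8, Slc26a10 and Slc29a1 lie below 0.

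**Figure D4:**
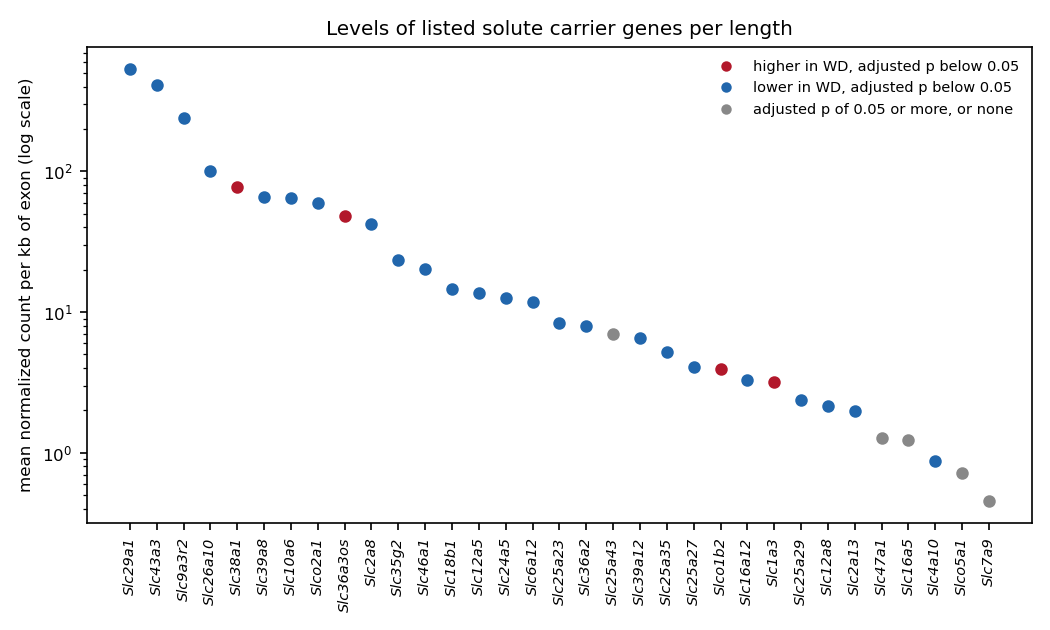
Mean normalized count per kilobase of merged exon (vertical axis, log scale) for 33 of the solute carrier genes in descending order. Slc29a1, Slc43a3 and Slc9a3r2 stand highest, at 538, 411 and 238 per kb, and Slc7a9 lowest, at 0.453 per kb.

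Transporters were also grouped by the cell that usually expresses them. These lists came from general knowledge and were chosen with earlier results of these data known, so their counts are descriptive only. A listed symbol need not be restricted to that cell. Of 10 solute carrier symbols known from endothelium, 5 were listed and all 5 fell: the transporter genes Slco2a1, Slc39a8, Slc43a3 and Slc29a1 and the scaffold gene Slc9a3r2, from -3.21 to -1.04 in the authors' deposited table. Of 13 hepatocyte uptake carriers, Slco1b2 alone was listed. Of the 12 carriers on the macrophage list, among them the iron exporter gene Slc40a1 and the phagosomal metal transporter gene Slc11a1, none was in the table. Whether they differed by less than the table's limits is not known. That list does not hold every carrier of macrophages: Slc46a1, of the vitamin and heme class, was not on it and fell (-1.07 ± 0.23). The labelled cell type was looked at through Kupffer cell markers, and none of 7 (Adgre1, Clec4f, Timd4, Vsig4, Cd5l, Marco and C1qa) was in the table, which therefore gives no level for them. All 10 sinusoidal endothelial markers were lower, between -4.12 and -2.58 on the log2 scale, at mean counts of 774 to 6209, in the authors' deposited table. Of 7 stellate cell markers, 6 were lower (-2.37 to -1.46), and of 8 hepatocyte markers 3 were higher (1.19 to 3.91) in the authors' deposited table. Mast cell markers were higher in 3 of 4 cases and lower in 1 (Kit), dendritic cell markers were higher in 4 of 5 and lower in 1 (Zbtb46), B cell markers were higher in 2 of 4, and no cholangiocyte marker of 4 was listed. Leaving out these 5 endothelial list members left 20 falls and 4 rises among the members. Which cells the remaining transcripts came from was not tested.

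**Figure D5:**
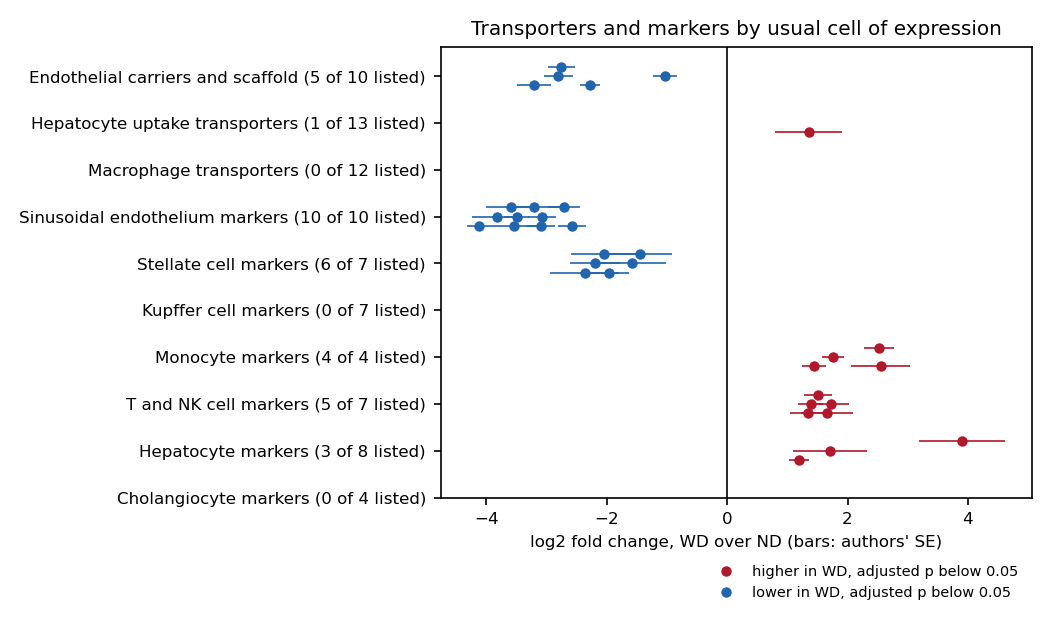
Log2 fold change, WD over ND (horizontal axis, bars are the authors' SE), of genes in 10 of the lists, grouped by the cell that usually expresses them, with the number listed in the table out of the list's size. The 5 listed genes of the endothelial solute carrier list, of which 4 are transporters, and the 10 endothelial markers lie below 0, and the macrophage transporter and Kupffer cell lists have no gene in the table.

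Other membrane transport genes, taken by symbol, form smaller groups, so their counts are given beside the annotated totals. Listed were 5 of 50 ABC transporters, 5 of 94 ATPase symbols, 2 of 12 aquaporins and 4 of 37 atypical carriers. For solute carriers the count was 34 of 394. Of 50 annotated ABC transporters, 3 fell and 2 rose in the authors' deposited table. The falls were the nucleotide exporter gene Abcc4 (-1.40 ± 0.20), the potassium channel regulator gene Abcc9 (-1.97 ± 0.53) and the urate and drug exporter gene Abcg2 (-1.26 ± 0.23) in the authors' deposited table. The drug efflux genes Abcb1a (1.28 ± 0.19) and Abcc2 (1.81 ± 0.59) rose in the authors' deposited table. Of 12 aquaporins, Aqp1, the water channel, had a mean count of 8782 and fell 10.2-fold (-3.35 ± 0.37), and Aqp11 was listed at 1.07 ± 0.51 without passing in the authors' deposited table. Of 37 carriers of solute carrier type with other symbols, the sphingosine-1-phosphate exporter gene Spns2 fell (-2.80 ± 0.18), Unc93a (1.70 ± 0.40) and Unc93a2 (1.74 ± 0.66) rose, and Mfsd2a was listed at 1.02 ± 0.47 without passing in the authors' deposited table. Of 94 genes with ATPase symbols, Atp9a (-1.76 ± 0.24), Atp6v0e2 (-1.92 ± 0.46) and Atp5k (-1.06 ± 0.33) fell, Atp10a rose (1.14 ± 0.20) and Atp1a4 was listed at -3.23 ± 1.58, with the adjusted p left blank by the authors.

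By position, 6 of the 34 members (17.6%) lie on chromosome 2, against 6.62% of all listed genes and 9.14% of annotated solute carriers. These were Slc2a8, Slc4a10, Slc12a5, Slc24a5, Slc39a12 and Slc43a3, and all 6 fell. Chromosome 11 held as many members, in both directions. There Slc25a35, Slc36a2 and Slc46a1 fell, Slc36a3os rose, and Slc16a5 and Slc47a1 did not pass. Shares were computed for chromosome 2 alone, so they do not set it apart from other chromosomes. No test of the position was made. No exon of 27 members is shared with another annotated gene. The overlapping gene was itself listed for 1 of the other 7: Gm17080 shares 6.86% of the exon bases of Slc29a1 on the opposite strand and stood at -2.46 ± 0.64 in the authors' deposited table. In the deposited GO and KEGG lists made from genes with positive fold changes, the authors named Slco1b2 in 7 of 373 GO terms and 1 of 78 KEGG terms, Slc1a3 in 4 and 1, and Slc38a1 in 1 and 1.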

How the data were processed

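Polyadenylated RNA of liver macrophages was sequenced, per the labels' protocols, in 4 WD and 4 ND libraries. Build mm10 and the tools STAR, HISAT2, STAR-Fusion, StringTie, featureCounts, DESeq and edgeR come from the submitters' processing notes, which give no roles or versions. The deposited table carries, per the file headers, DESeq2 column names: a mean normalized count (a signal averaged over libraries), a log2 fold change with its SE, a test score, a p-value and an adjusted p-value. The authors had kept genes with a p-value below 0.05 and an absolute log2 fold change above 1. No count per library was analysed here, so the authors' adjusted p was used in place of a refit, with calls at 0.05.

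All 2386 gene IDs matched GENCODE M21, which gave positions, merged exon lengths and shared exon bases. The number of tested genes was sought as the whole number giving most whole ranks (91.0%, within 0.02). Tested on simulated data of 15000 genes, it gave 15000. RefSeq windows (GRCm38.p6) were matched by symbol for 25 members. Python 3.11.15, pandas 2.3.3, SciPy 1.17.1 and matplotlib 3.10.9 were used.

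Full statistics were given for the 8 lowest and 8 highest fold changes among called members at or above the median level of listed genes, the 8 most abundant members and families of 3 or more listed genes. Beyond the totals, 1 member is not reported here and not drawn. The members and all lists were chosen with earlier results of these data known. Alternatives were a stricter adjusted p, the unadjusted p, an interval beyond 2-fold, level limits and transporter genes only, and after the data were seen, members outside the endothelial list and members sharing no exon. Library depth is unknown, so precision rests on the SE, which reflects the spread between libraries; whether each library came from a separate mouse is stated only by the series design.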

Additional observations from a re-analysis of the deposited data

How the results depend on the processing

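The 25 falls numbered 21 at an adjusted p below 0.01, 28 at the authors' unadjusted p, 22 with a mean count of at least 10, 24 among transporter genes only and 19 among members sharing no exon. They numbered 14 with a 95% interval wholly beyond 2-fold and 13 at or above the median level of listed genes. The 4 rises numbered 2 at an adjusted p below 0.01 (Slc38a1 and Slc1a3), 1 with an interval beyond 2-fold (Slc1a3), 1 at or above the median level (Slc38a1), 6 at the unadjusted p and 3 among transporter genes only. The unadjusted p limit was the filter of the deposited table itself, so that setting had to keep every listed member. The 6 calls lost at 0.01 were Slc12a8, Slc25a27, Slc25a29, Slc6a12, Slc36a3os and Slco1b2. The median log2 fold change of listed members was -1.80, and -1.70 with a mean count of at least 10. No direction changed under these settings, which keep the authors' fold changes. Leaving out a library, another normalization and another count model were not run, as the table holds no value per library. No paired analysis was possible because the labels give the groups no shared replicate number and the table has no columns per library.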
